A study of Oryctolagus cuniculus with 17 samples.

Results

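The genes described here are 10 members of the transforming growth factor beta (TGF-beta) pathway in the lung of preterm rabbits. They are the ligands TGFB1, TGFB2 and TGFB3, the receptors TGFBR1, TGFBR2 and TGFBR3, the inhibitor SMAD7 and the target genes CCN2, INHBA and TGFBI. Members were found by their human homolog name, and for each symbol the entry with the highest total count would have been kept; each symbol matched 1 entry, so the members were 10 of the 13827 entries of the count table. RNA-seq was performed on 17 lung homogenates of New Zealand White pups delivered by caesarean section on gestation day 28, before term. All pups were housed in incubators and tube-fed a milk replacer. Hyperoxia groups breathed 95% O2 until postnatal day 3 (HT3), 5 (HT5) or 7 (HT7), and normoxia groups breathed 21% O2 until the same days (NT3, NT5, NT7). Each group had 3 samples, except HT5 with 2. The sources used here do not say whether pups of a group shared a litter, so the p-values measure the spread between these samples. All pups were born preterm, so that the normoxia groups are preterm lungs in room air and no term-born group enters the comparisons.

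TGF-beta ligands are secreted in a latent complex that is held in the matrix by latent TGF-beta binding proteins and opened by integrins, thrombospondin or proteases. The free ligand binds the type II receptor TGFBR2, which recruits and activates the type I receptor TGFBR1, and SMAD2 and SMAD3 then carry the signal to the nucleus together with SMAD4. In the developing lung the pathway takes part in branching, matrix deposition and alveolar septation, and both too little and too much signalling disturb alveolar growth in animal models. The abundance of these mRNAs does not measure the active ligand or the signal.

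The count totals of the samples lay between 14508362 and 19961087 over all entries, and no pair of samples was a duplicate. Levels are given as CPM, counts scaled to a common library total and corrected by TMM factors, which lay between 0.958 and 1.05. Alveolar type 2 markers such as SFTPC and SFTPB were abundant in every sample, with a summed level of at least 7594 CPM, while the 3 liver markers in the table summed to at most 9.19 CPM. Skeletal muscle markers reached 417 CPM in 1 or more HT3 samples and 375 CPM in HT5, against at most 113 CPM in normoxia. Among the HT7 samples, replicate 2 had the lowest level for 73.2% of the 3114 genes that were higher in HT7 than in NT7. Levels are compared between samples, not between genes, because the transcript lengths behind the counts are not known.

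Hyperoxia changed none of the 10 members on day 3, 3 on day 5 and 5 on day 7. A change was called at an adjusted p-value under 0.05 in edgeR's quasi-likelihood test, adjusted by Benjamini-Hochberg over the 13142 entries tested, and all 10 members passed the filter on low counts. On day 3, 2 members (TGFB3 and TGFBR1) had an unadjusted p under 0.05, as did 2013 of the 13142 entries, and DESeq2 called 0 members as well, with 1 left without an adjusted p; of all entries, 0.517% were called higher and 0.517% lower. On day 5, TGFB2 rose while TGFBR2 and SMAD7 fell, where 15.9% of all entries were called higher and 15.4% lower. On day 7, CCN2, INHBA and TGFBI rose while TGFBR2 and SMAD7 fell, where 23.7% of all entries were called higher and 23.7% lower. The members' share of calls, 5 of 10 on day 7, was thus near that of all entries in both directions together. With the stricter rule for a differentially expressed gene (DEG; adjusted p under 0.01 and a log2 fold change, log2FC, above 2 or below -2), INHBA on day 7 was the 1 member called; DEGs made up 0.0533%, 1.58% and 4.59% of all entries on days 3, 5 and 7. INHBA did not meet this rule without HT7 replicate 3 (log2FC 1.83) or when the day 7 samples were fitted alone (adjusted p = 0.0103). The median log2FC of the members was -0.09, -0.28 and -0.24 on the 3 days, against 0.00, -0.02 and -0.01 for all entries.

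**Figure D1:**
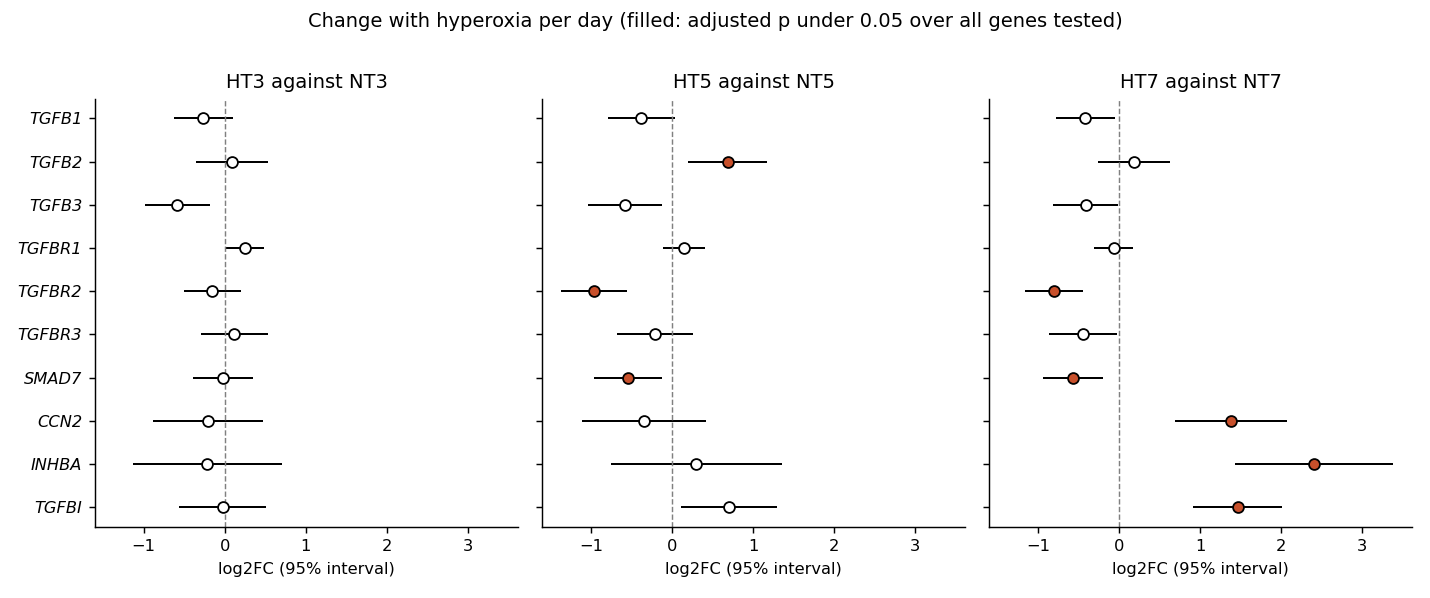
Log2FC of hyperoxia against normoxia for the 10 members (rows) on days 3, 5 and 7 (panels), with the 95% interval of each estimate as a line; filled points passed an adjusted p under 0.05. No point is filled on day 3; TGFBR2 and SMAD7 lie to the left of 0 and are filled on days 5 and 7, and the targets CCN2 (1.38), INHBA (2.41) and TGFBI (1.46) are filled to the right of 0 on day 7.

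Among the ligands, TGFB2 was the 1 that passed the test, on day 5, while TGFB1 and TGFB3 had lower means in hyperoxia on every day without passing it. TGFB2 (chromosome 16, 54746710 to 54835476, minus strand, build OryCun2.0) stood at 140 and 149 CPM in the 2 HT5 samples and at 87.8, 104 and 77.5 CPM in the 3 NT5 samples. Both HT5 samples thus lay above every NT5 sample. The rise was 1.61-fold (log2FC 0.69, SE 0.23, adjusted p = 0.0340). On the same day the macrophage markers summed to 1614 to 1672 CPM in HT5 and 830 to 1460 CPM in NT5, and the neutrophil markers to 729 to 1074 CPM and 164 to 740 CPM, with 2 of 7 higher in each list. Of 6 skeletal muscle markers, which summed to 57.8 to 375 CPM in HT5 and 89.9 to 113 CPM in NT5, 4 were higher and 1 was lower; the part of these 3 lists in the TGFB2 level was not tested. By day 7 the TGFB2 level was 75.1 ± 19.3 CPM in HT7 (SD, n = 3) and 66.1 ± 1.39 CPM in NT7 (n = 3), with overlapping samples and an adjusted p of 0.487. The day 5 call was lost without HT5 replicate 1 (adjusted p = 0.0689), HT5 replicate 2 (0.192), NT5 replicate 1 (0.0694) or NT5 replicate 3 (0.107).

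TGFB1, the most studied ligand in lung fibrosis, was measured at 44.0, 40.6 and 49.5 CPM in HT7 and at 61.5, 57.6 and 60.1 CPM in NT7. All 3 HT7 samples lay below all 3 NT7 samples, but the difference (log2FC -0.42, SE 0.17) had an adjusted p of 0.0556. It passed the threshold in 4 of 6 alternative analyses of the test, with DESeq2 among them (adjusted p = 0.0455). When any 1 sample was left out it passed in 0 of 6 edgeR fits (adjusted p from 0.0594 to 0.149). The table's TGFB1 entry carries no rabbit gene name and spans 507 bp of an unplaced scaffold (584218 to 584724, minus strand), and how much of the gene it covers is not known. On day 5, the log2FC of TGFB1 was -0.38 (adjusted p = 0.145), and without NT5 replicate 3 it was -0.54 with an adjusted p of 0.0418. Over the 5 fits that left out 1 sample, the day 5 log2FC ran from -0.57 to -0.18.

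TGFB3 (chromosome 20, 29184036 to 29208373, plus strand) is the third isoform of the ligand. Its levels were 14.02, 14.40 and 16.40 CPM in HT3 and 23.97, 19.20 and 24.06 CPM in NT3, and 14.03 and 11.47 CPM in HT5 against 20.3, 18.0 and 18.8 CPM in NT5. The hyperoxia samples lay below the normoxia samples on both days. On day 7 this separation was absent, since HT7 replicate 1 reached 19.9 CPM while replicates 2 and 3 were at 11.49 and 11.99 CPM, against 17.6 to 20.8 CPM in NT7. The log2FC values of -0.58, -0.58 and -0.41 had adjusted p-values of 0.153, 0.0523 and 0.0866 on days 3, 5 and 7. Without HT7 replicate 1 the day 7 value was -0.71 with an adjusted p of 0.00240. This was the 1 of 6 fits leaving out a sample that passed on day 7, with adjusted p-values up to 0.295 in the others. Of 6 alternative analyses, 0 passed on day 7. On day 5 TGFB3 passed in 3 of 6 alternatives, with DESeq2 among them (adjusted p = 0.0354). When 1 sample was left out, the day 5 log2FC ran from -0.73 to -0.46.

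**Figure D2:**
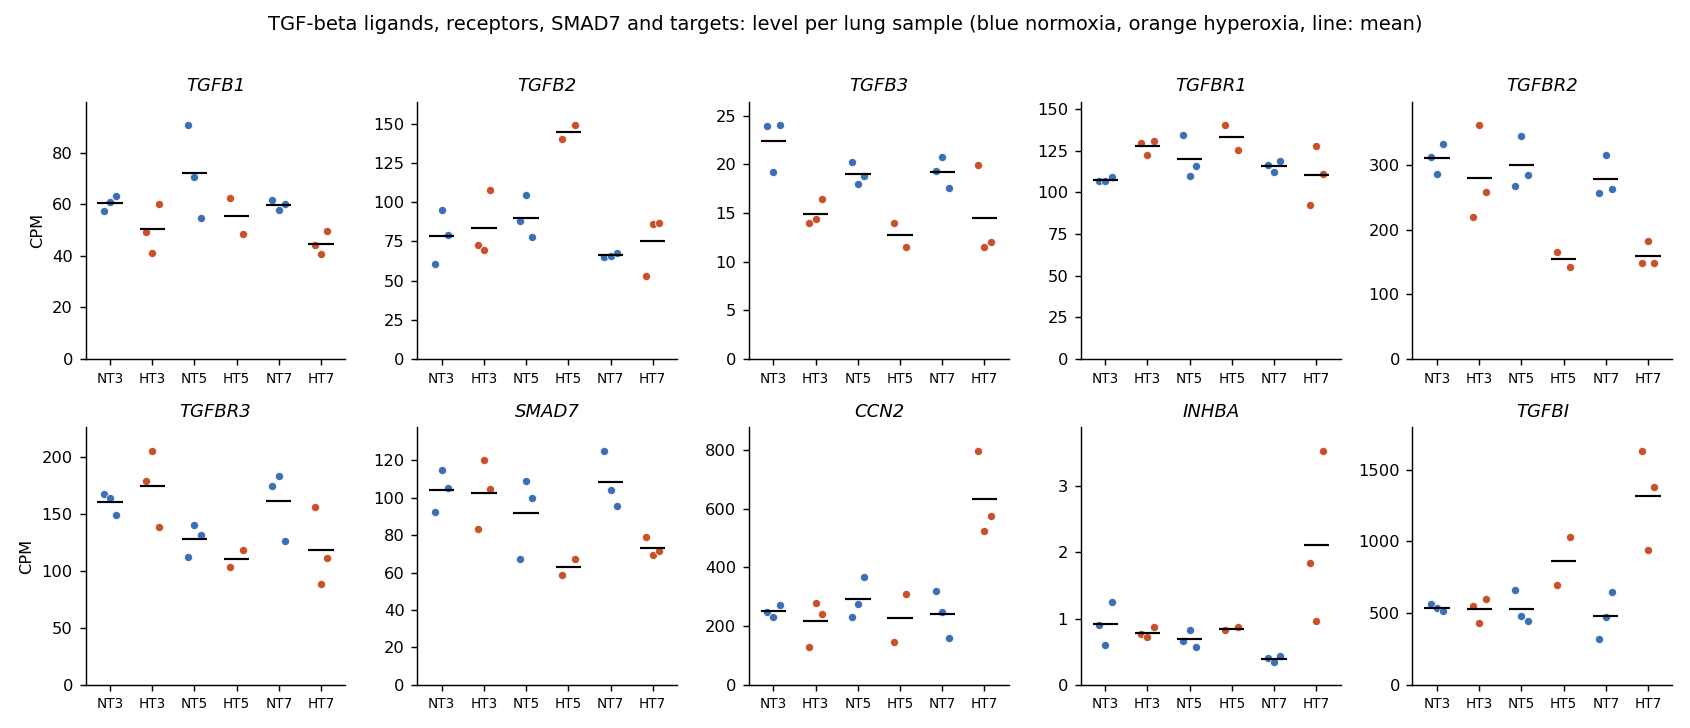
Level (CPM, linear axis from 0) of each member in each of the 17 lung samples, by group (blue normoxia, orange hyperoxia; the black line is the group mean). The HT5 and HT7 samples of TGFBR2 lie between 143 and 183 CPM, below every normoxia sample, and those of TGFBI lie above every normoxia sample; CCN2 is above all normoxia samples in HT7 alone.

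Of the receptors, TGFBR2 fell on days 5 and 7, while TGFBR1 and TGFBR3 did not pass the test on any day. TGFBR2 (chromosome 14, 17663078 to 17748720, plus strand) encodes the type II receptor that binds the ligand. On day 3 its level was 220, 362 and 258 CPM in HT3 and 313, 287 and 333 CPM in NT3, and the groups overlapped. It was 166 and 143 CPM in HT5 against 268, 346 and 285 CPM in NT5, and 149, 183 and 148 CPM in HT7 against 257, 315 and 263 CPM in NT7. All 5 samples of HT5 and HT7 lay below all 9 normoxia samples of the 3 days. TGFBR2 was 1.94-fold lower on day 5 (log2FC -0.96, SE 0.19, adjusted p = 0.00213) and 1.74-fold lower on day 7 (log2FC -0.80, SE 0.17, adjusted p = 0.00121). Both calls held when any 1 sample was left out and in all 6 alternative analyses of the test.

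Levels of several cell type markers moved with TGFBR2, and on the same days with SMAD7. The summed level of 7 endothelial markers was 1230 to 1318 CPM in HT5 and 899 to 1259 CPM in HT7, against 2070 to 2586 CPM in NT5 and 2245 to 2625 CPM in NT7, with 4 of the 7 lower and 1 higher on day 5, and 5 lower on day 7. The 5 alveolar type 1 markers summed to 1937 to 2539 CPM in HT7 and 6464 to 7245 CPM in NT7, and to 2219 to 3795 CPM in HT5 and 5595 to 6814 CPM in NT5, with 3 of the 5 lower on each day. The 3 lower on day 7 were AGER, CAV1 and RTKN2, while PDPN and HOPX had log2FC values of 0.15 and 0.35 and did not pass the test. On day 7 the endothelial markers KDR, TEK, TIE1, CDH5 and EMCN fell, while PECAM1 and VWF had log2FC values of -0.05 and 0.29 and did not pass the test. On day 5 the 6 fibroblast markers summed to 2694 to 3302 CPM in HT5 and 4260 to 4913 CPM in NT5, with 3 lower, and the 6 markers of smooth muscle cells and pericytes to 776 to 1056 CPM and 1080 to 1344 CPM, with 3 lower and 1 higher. The part of these markers' cell types in the TGFBR2 and SMAD7 values was not tested, and in whole-lung RNA fewer cells of a type cannot be told apart from less RNA per cell.

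TGFBR1 (chromosome 1, 14067402 to 14138593, minus strand), the type I receptor kinase, was higher in all 3 HT3 samples (123 to 131 CPM) than in the NT3 samples (107 to 109 CPM), a difference of 0.25 in log2FC that did not pass the test (adjusted p = 0.299). On days 5 and 7 its groups overlapped, with log2FC values of 0.15 and -0.07; the 95% interval on day 7 ran from -0.30 to 0.17. TGFBR3 (chromosome 13, 72582178 to 72765425, plus strand) encodes betaglycan, a co-receptor that presents the ligand, TGFB2 above all, to the signalling receptors. TGFBR3 levels overlapped between hyperoxia and normoxia on every day, and its log2FC was 0.12, -0.21 and -0.44 on days 3, 5 and 7. The day 7 value had an adjusted p of 0.0763, which became 0.00926 without HT7 replicate 1 (156 CPM, where replicates 2 and 3 had 88.4 and 111 CPM) and 0.0312 without NT7 replicate 3. Without HT7 replicate 2 the log2FC was -0.26 with an adjusted p of 0.281. Of 6 alternative analyses of the test, 0 passed.

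SMAD7 (chromosome 9, 89926263 to 89989670, minus strand) encodes the inhibitory SMAD that blocks the type I receptor and is itself induced by TGF-beta. It fell on days 5 and 7. Its level was 58.9 and 67.2 CPM in HT5 against 67.3, 109 and 99.9 CPM in NT5, and 79.2, 69.2 and 71.4 CPM in HT7 against 125, 104 and 95.5 CPM in NT7. The hyperoxia samples lay below the normoxia samples of the same day, on day 5 by a narrow margin to NT5 replicate 1. SMAD7 was 1.46-fold lower on day 5 (log2FC -0.55, SE 0.20, adjusted p = 0.0466) and 1.48-fold lower on day 7 (log2FC -0.56, SE 0.17, adjusted p = 0.0146). On day 3 the SMAD7 level was 104 ± 11.3 CPM under normoxia and 103 ± 18.3 CPM under hyperoxia (SD over 3 samples), and the log2FC was -0.02. The day 5 call was lost without HT5 replicate 1 (adjusted p = 0.188), HT5 replicate 2 (0.126), NT5 replicate 2 (0.170) or NT5 replicate 3 (0.119), with a replicate block (0.0503), with DESeq2 size factors in edgeR (0.0528) and when the day 5 samples were fitted alone (0.142). The day 7 call was lost without HT7 replicate 3 (0.0501) or NT7 replicate 1 (0.0681).

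The 3 target genes rose on day 7, by 2.61-fold for CCN2, 5.30-fold for INHBA and 2.76-fold for TGFBI, and none passed the test on days 3 or 5. All 3 calls on day 7 held when any 1 sample was left out and in all 6 alternative analyses of the test.

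CCN2 (chromosome 12, 122183259 to 122186281, minus strand) encodes connective tissue growth factor, a matricellular protein induced by TGF-beta and by mechanical strain. It was measured at 797, 524 and 573 CPM in HT7 and at 319, 249 and 160 CPM in NT7 (log2FC 1.38, SE 0.33, adjusted p = 0.00289). Every HT7 sample lay above every normoxia sample of any day, of which the highest, in NT5, had 367 CPM. On day 3 normoxia samples averaged 250 ± 21.1 CPM and hyperoxia samples 216 ± 78.4 CPM (SD, n = 3 per group), and they overlapped. On day 5 the 2 HT5 samples differed widely, at 147 and 311 CPM, against 231, 275 and 367 CPM in NT5, and the log2FC of -0.34 had an adjusted p of 0.493 and turned to 0.10 without HT5 replicate 1.

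INHBA (chromosome 10, 24692312 to 24708914, minus strand) encodes the subunit of activin A, a ligand of the same family, and had few reads. Its counts were 32, 16 and 69 in HT7 and 6, 5 and 7 in NT7, or 1.85, 0.968 and 3.53 CPM against 0.410, 0.337 and 0.436 CPM. All HT7 samples lay above all NT7 samples (log2FC 2.41, SE 0.46, adjusted p = 0.000600), and they spread over more than a factor of 3. NT7 held the lowest INHBA levels of the series: NT3 had 0.896, 0.605 and 1.25 CPM, so that HT7 replicate 2 lay below 1 NT3 sample. In HT3 and HT5 the level ran from 0.720 to 0.875 CPM, and the log2FC was -0.21 on day 3 and 0.30 on day 5 (adjusted p = 0.861 and 0.672).

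TGFBI (chromosome 3, 18446613 to 18553561, plus strand) encodes a secreted matrix protein that binds collagens and integrins and was named for its induction by TGF-beta. Its level was 1633, 941 and 1382 CPM in HT7 against 317, 473 and 645 CPM in NT7 (log2FC 1.46, SE 0.26, adjusted p = 0.000333). In HT5 it was 696 and 1029 CPM against 660, 481 and 445 CPM in NT5, a log2FC of 0.71 (SE 0.28) with an adjusted p of 0.0650. All 5 samples of HT5 and HT7 thus lay above all 9 normoxia samples, though the day 5 difference passed the test with DESeq2 (adjusted p = 0.0383), without HT5 replicate 1 (0.0379) or without NT5 replicate 1 (0.0366), and not otherwise. The day 3 groups overlapped, with means of 537 ± 22.6 CPM under normoxia and 528 ± 86.6 CPM under hyperoxia (SD, n = 3 per group).

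Marker levels of several cell types also differed on day 7. The 7 macrophage markers summed to 1707 to 2332 CPM in HT7 and 1087 to 1284 CPM in NT7, with CD68 and CD163 higher and MARCO lower on day 7. The 6 fibroblast markers summed to 3825 to 4244 CPM in HT7 and 3912 to 5289 CPM in NT7, with LUM and FBLN1 higher and COL1A2 and TCF21 lower. The 6 markers of smooth muscle cells and pericytes summed to 693 to 899 CPM in HT7 and 974 to 1333 CPM in NT7, with DES higher and MYH11, PDGFRB and RGS5 lower. The 7 neutrophil markers summed to 1131 to 3533 CPM in HT7 and 1081 to 1183 CPM in NT7, with CXCR2 and MMP9 higher. The 3 mesothelial markers in the table summed to 10.6 to 36.9 CPM in HT7 and 76.5 to 168 CPM in NT7, with UPK3B lower (log2FC -3.10). The other mesothelial markers, WT1 and LRRN4, had log2FC values of 0.56 and 0.50 and did not pass the test. They reached at most 1.85 and 5.74 CPM in any sample, so the sum mostly follows UPK3B. The fibroblast and neutrophil sums overlapped between HT7 and NT7. The part of these cell types in the levels of CCN2, INHBA and TGFBI was not tested.

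To see whether the members also moved with age alone, day 7 was compared with day 3 within each condition. In normoxia none of the 10 members passed the test by edgeR or DESeq2, and INHBA alone had an unadjusted p under 0.05 (0.917 CPM in NT3 and 0.394 CPM in NT7; log2FC -1.20, adjusted p = 0.699). Over all entries 0% were called by edgeR in that comparison, where 824 had an unadjusted p under 0.05 and DESeq2 called 39. In hyperoxia, 6 members changed from HT3 to HT7, where 44.3% of all entries were called. TGFBR2 (log2FC -0.80, adjusted p = 0.00139), TGFBR3 (-0.55, 0.0326) and SMAD7 (-0.49, 0.0326) fell. CCN2 (log2FC 1.55, adjusted p = 0.00161), INHBA (1.42, 0.0129) and TGFBI (1.32, 0.000868) rose. The TGFBR3 call was lost without any 1 of HT3 replicates 1 and 2 and HT7 replicates 2 and 3 (adjusted p up to 0.140), the SMAD7 call without any 1 of HT3 replicates 2 and 3 and HT7 replicates 2 and 3 (up to 0.145), and the INHBA call without HT7 replicate 3 (log2FC 0.84, adjusted p = 0.109). Fitted on HT3 and HT7 alone, TGFBR3 (0.0874) and INHBA (0.0614) did not pass either.

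The difference between the hyperoxia effect on day 7 and that on day 3 was tested in the same model. It was positive and passed the test for CCN2 (1.59 in log2FC, SE 0.45, adjusted p = 0.0246), INHBA (2.62, SE 0.63, 0.0108) and TGFBI (1.49, SE 0.36, 0.0109), so 3 of 10 members, where 20.5% of all entries were called. For TGFBR2 the difference was -0.65 (SE 0.23) with an adjusted p of 0.0625, and for SMAD7 it was -0.55 (SE 0.24) with an adjusted p of 0.127. Without HT7 replicate 3 the INHBA difference was 2.03 (adjusted p = 0.0294). The CCN2 difference did not pass without HT3 replicate 1 (adjusted p = 0.0507), HT7 replicate 1 (0.0643), NT3 replicate 3 (0.0546), NT7 replicate 2 (0.0514) or NT7 replicate 3 (0.0558), and the TGFBR2 difference passed without HT3 replicate 1 (0.0280) or HT7 replicate 2 (0.0319) and with DESeq2 (0.0411).

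Neither step between neighbouring days gave a call among the members in edgeR. Between days 5 and 7, 0 members and 0% of all entries passed in edgeR (DESeq2 called 0 members and 28 entries; 2 members and 1125 entries had an unadjusted p under 0.05). The 2 members were CCN2, with a difference of 1.73 in log2FC (SE 0.49, adjusted p = 0.442), and INHBA, with 2.10 (SE 0.68, adjusted p = 0.464). Between days 3 and 5, 0 members passed in edgeR, where 1.46% of all entries were called, and TGFBR2 had the 1 unadjusted p under 0.05 (log2FC difference -0.81, SE 0.25, adjusted p = 0.0982), which DESeq2 called (0.0401). Both steps were added after the values had been seen.

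Set against all 9 normoxia samples of the 3 days, HT7 lay wholly above in 2 members (CCN2 and TGFBI) and wholly below in 2 (TGFB1 and TGFBR2). Over all entries, HT7 lay above all normoxia samples in 21.7% and below in 21%. The HT5 and HT7 samples as 1 set lay above in 1 member (TGFBI) and below in 1 (TGFBR2), against 15.8% and 14.6% of all entries. This count was also added after the values had been seen.

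The members were next set beside the other genes of the pathway, in 5 lists by role. Of 59 genes, 52 were in the table, and all of them passed the filter. On day 3, 0 rose and 1 fell (EMILIN1, which shares its locus with other entries, 4 in all, so that its reads cannot be assigned). On day 5, 7 rose and 15 fell, and on day 7, 11 rose and 16 fell. Of all entries, 15.9% rose and 15.4% fell on day 5, and 23.7% rose and 23.7% fell on day 7. The median log2FC over the 52 genes was -0.05, -0.25 and -0.02 on the 3 days.

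**Figure D3:**
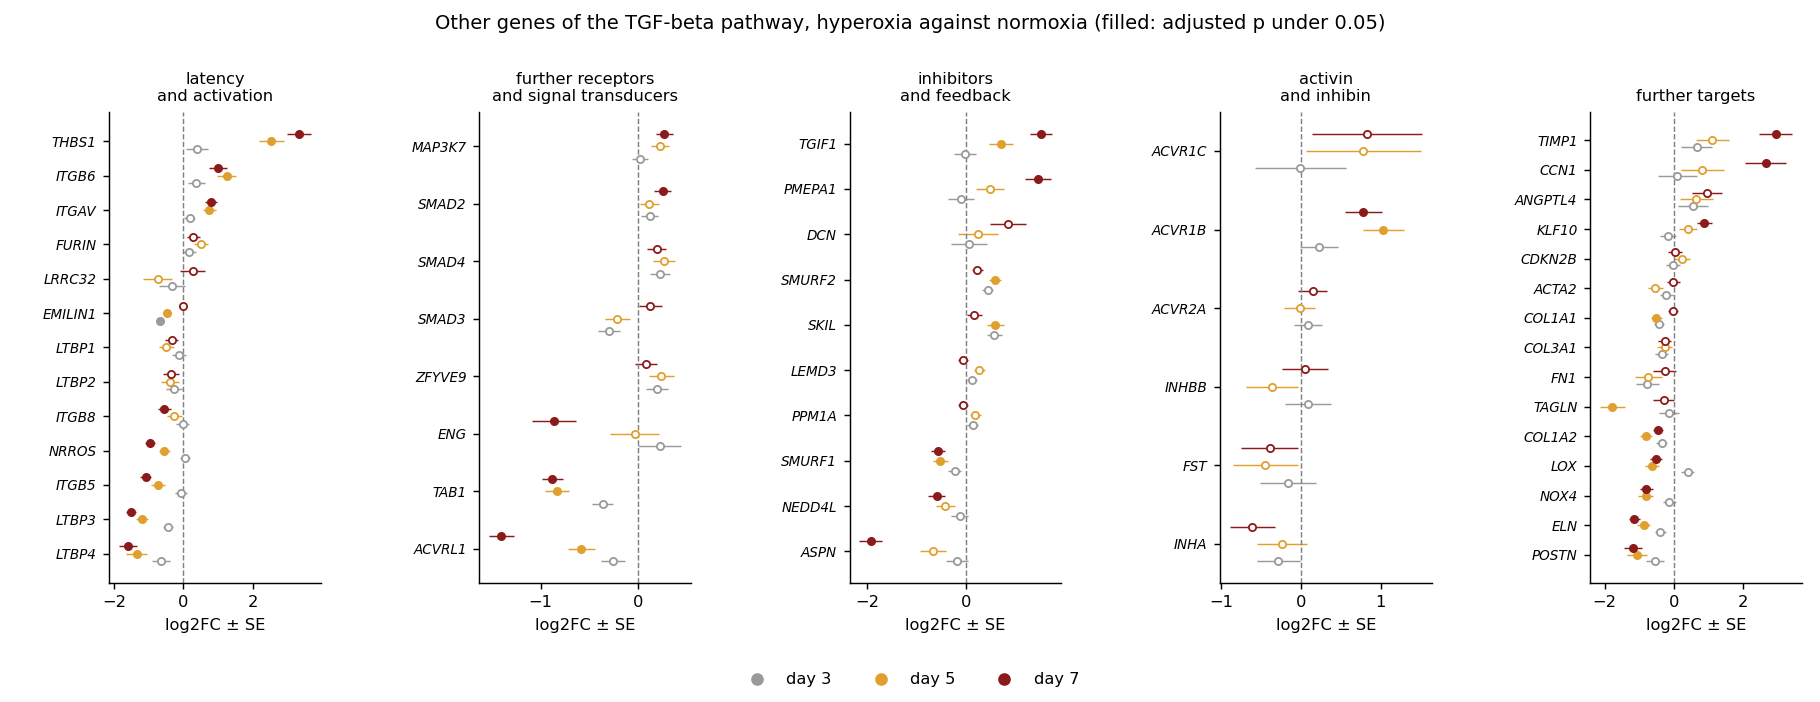
Log2FC ± SE of hyperoxia against normoxia for the 52 further pathway genes in 5 lists by role, on day 3 (grey), day 5 (yellow) and day 7 (dark red); filled points passed an adjusted p under 0.05, and each panel has its own axis range. THBS1 (3.34), TIMP1 (2.96) and CCN1 (2.67) lie farthest to the right on day 7, and LTBP4 (-1.60), LTBP3 (-1.50), ACVRL1 (-1.41) and ASPN (-1.93) are filled to the left of 0.

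The first list holds genes that keep the ligand latent or release it. Of 13, 3 rose and 5 fell on day 7, where 23.7% of all entries rose and 23.7% fell. THBS1, thrombospondin 1, which can activate latent TGF-beta, stood at 4145, 2422 and 3239 CPM in HT7 against 369, 266 and 332 CPM in NT7 (log2FC 3.34, SE 0.34, adjusted p = 5.71e-06), and had risen on day 5 (log2FC 2.54, adjusted p = 0.000267), with 1353 and 2994 CPM against 311 to 454 CPM. The integrin subunits ITGAV (log2FC 0.80) and ITGB6 (0.99), which form an activating integrin of the epithelium, rose as well. Other integrin subunits of the list fell, ITGB5 (log2FC -1.09) and ITGB8 (-0.55). The latent TGF-beta binding proteins LTBP3 (60.9, 64.3 and 55.7 CPM in HT7 against 138, 203 and 171 CPM in NT7; log2FC -1.50, adjusted p = 4.15e-06) and LTBP4 (134, 134 and 95.4 CPM against 302, 427 and 373 CPM; log2FC -1.60, adjusted p = 0.000208) fell, while LTBP1 and LTBP2 did not pass the test; LTBP2 shares its locus with another entry, so that its reads cannot be assigned. NRROS fell too. The entries of LTBP3 (122 to 3965) and LTBP4 (9126 to 13533) lie on unplaced scaffolds, and how much of these genes they cover is not known.

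Of 8 further receptors and signal transducers, 2 rose and 3 fell on day 7 (all entries: 23.7% and 23.7%). ACVRL1 (ALK1) and its co-receptor ENG (endoglin), both best known from endothelial cells, fell beside TGFBR2. ACVRL1 was at 156, 145 and 164 CPM in HT7 against 442, 427 and 360 CPM in NT7 (log2FC -1.41, SE 0.13, adjusted p = 2.62e-06) and had fallen on day 5 (log2FC -0.58, adjusted p = 0.00668). ENG was at 315, 194 and 263 CPM against 517, 455 and 430 CPM on day 7 (log2FC -0.86, SE 0.23, adjusted p = 0.00605) and had a log2FC of -0.03 on day 5. The endothelial marker sum given above was lower in hyperoxia on both days, as was ACVRL1, while ENG was lower on day 7 and overlapped between HT5 and NT5; its part in their values was not tested. TAB1, an adaptor of the kinase TAK1, fell (40.1, 44.9 and 44.3 CPM against 72.5, 86.7 and 78.8 CPM; log2FC -0.88, adjusted p = 2.31e-05), whereas MAP3K7, which encodes TAK1, rose by 0.27 and the signal carrier SMAD2 by 0.26 on the log2 scale. SMAD3 and SMAD4 did not pass the test on day 7.

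Of 10 inhibitors and feedback genes, 2 rose and 3 fell on day 7, besides SMAD7 (all entries: 23.7% and 23.7%). PMEPA1, a feedback inhibitor induced by TGF-beta, was at 48.8, 24.1 and 36.7 CPM in HT7 against 13.1, 12.9 and 14.3 CPM in NT7 (log2FC 1.45, SE 0.27, adjusted p = 0.000498). The PMEPA1 entry spans 3110 to 9122 of an unplaced scaffold, and how much of the gene it covers is not known. TGIF1, a SMAD co-repressor, was at 114, 50.6 and 96.5 CPM against 33.5, 25.8 and 32.7 CPM (log2FC 1.51, SE 0.22, adjusted p = 8.88e-05). Both inhibitors thus lay higher in every HT7 sample than in any NT7 sample, opposite in direction to SMAD7. ASPN, asporin, a matrix proteoglycan that binds TGF-beta, fell to 69.4, 109 and 86.4 CPM from 323, 317 and 369 CPM (log2FC -1.93, SE 0.23, adjusted p = 1.79e-05), and the ubiquitin ligases SMURF1 and NEDD4L fell by 0.57 and 0.60 on the log2 scale.

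In the activin and inhibin list, to which INHBA is related, 1 of 6 genes rose on day 7 and none fell (all entries: 23.7% and 23.7%). ACVR1B, the type I receptor of activin, was at 56.6, 70.8 and 58.8 CPM in HT7 against 43.3, 32.2 and 32.8 CPM in NT7 (log2FC 0.78, SE 0.24, adjusted p = 0.0132) and had risen on day 5 (log2FC 1.03, adjusted p = 0.00824). FST, the activin antagonist follistatin, had a log2FC of -0.39 on day 7 and did not pass the test (adjusted p = 0.384).

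Of 15 further targets, 3 rose and 5 fell on day 7 (all entries: 23.7% and 23.7%), and 0 rose and 7 fell on day 5 (all entries: 15.9% and 15.4%). The largest fall of day 5 was that of TAGLN, a smooth muscle actin-binding protein (log2FC -1.78, SE 0.36, adjusted p = 0.00239), which did not pass the test on day 7 and was picked after its values were seen. TIMP1, an inhibitor of matrix metalloproteinases, was at 1434, 264 and 705 CPM against 142, 68.7 and 98.1 CPM (log2FC 2.96, SE 0.47, adjusted p = 0.000166). CCN1, a matricellular relative of CCN2, was at 838, 249 and 474 CPM against 88.7, 98.0 and 58.9 CPM (log2FC 2.67, SE 0.60, adjusted p = 0.00207). Both genes were higher in every HT7 sample than in any NT7 sample, with the lowest HT7 level in replicate 2. KLF10 rose as well. POSTN, periostin, a matrix protein, fell to 28.8, 41.3 and 33.7 CPM in HT7 against 70.8, 76.4 and 88.2 CPM in NT7 (log2FC -1.18, SE 0.26, adjusted p = 0.00164) and had fallen on day 5 (log2FC -1.06, adjusted p = 0.0138). The matrix and crosslinking genes ELN (log2FC -1.14), LOX (-0.50) and COL1A2 (-0.45) fell, as did NOX4 (-0.79), and COL1A1, COL3A1, FN1 and ACTA2 did not pass the test on day 7.

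**Figure D4:**
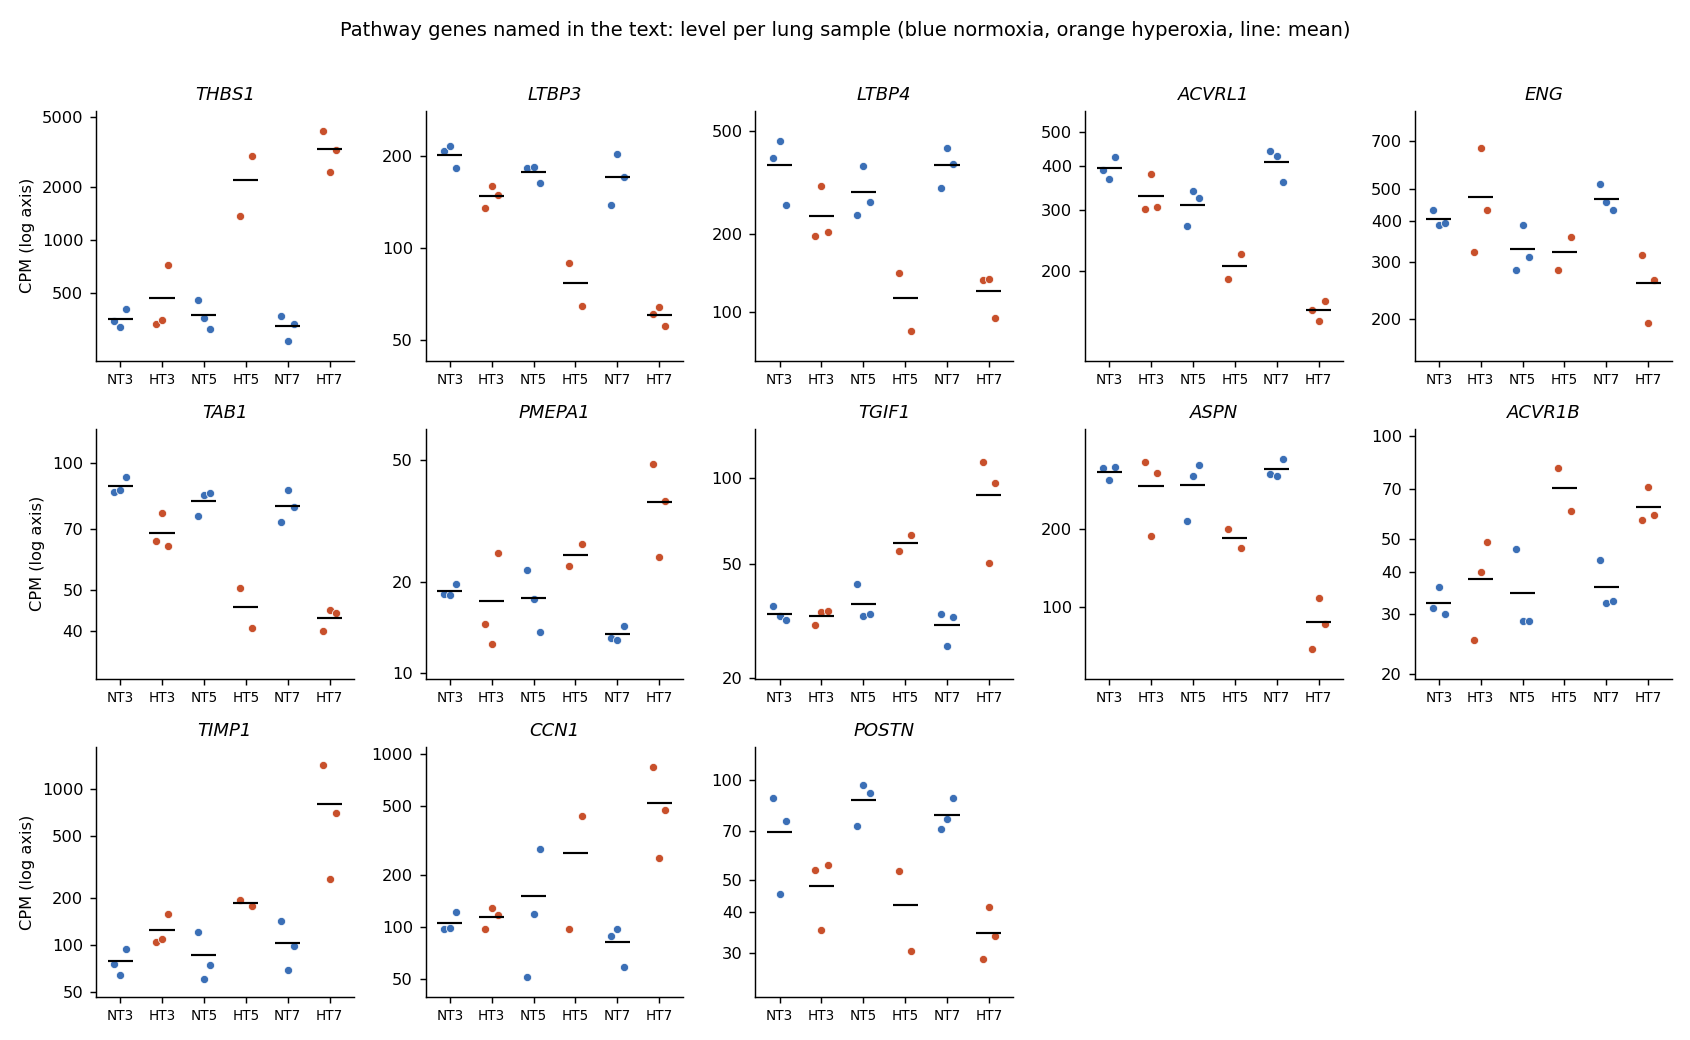
Level (CPM, log axis, range set per gene) of the 13 further pathway genes described by their values, in each of the 17 lung samples by group (blue normoxia, orange hyperoxia; the black line is the mean). The HT7 samples of THBS1 lie between 2422 and 4145 CPM and those of TIMP1 between 264 and 1434 CPM, above all NT7 samples; those of ACVRL1, LTBP3, LTBP4, TAB1, ASPN and POSTN lie below all NT7 samples.

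Of the 9 genes given above with their HT7 and NT7 values that rose on day 7 (3 members and 6 further pathway genes), 8 had their lowest HT7 level in replicate 2, as did 73.2% of all entries that rose. Without that sample the day 7 log2FC was 1.51 for CCN2, 2.76 for INHBA and 1.67 for TGFBI. For TGFBR2 and SMAD7 it was -0.90 and -0.52, and the same number of members, 5, was called. Without HT7 replicate 3, which had the highest INHBA level, the log2FC of INHBA was 1.83 (adjusted p = 0.00362).

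The genes whose log2 CPM followed a member most closely over the 17 samples were searched for the 3 members with the smallest adjusted p on day 7. For TGFBI they were MRPS18B (Pearson r = 0.944, at a locus shared by 3 entries), SAE1 (0.943) and LIMA1 (0.942). INHBA was followed most closely by FHL3 (0.873), GEM (0.863) and HMGA2 (0.842), and TGFBR2 by BTRC (0.959), TOM1L2 (0.956) and CHST7 (0.956). These values describe 17 samples that share the same groups, about 10990 genes were searched for each, and no test was made.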

How the data were processed

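Lung RNA of 17 preterm rabbit pups was sequenced as stranded, paired-end poly(A) libraries. The labels and the paper's methods name the right lung as the source, while the paper's results section names the left lung. The authors deposited raw counts per locus without normalization; the submitters' processing notes name FastQC, STAR 2.7.10a and the build OryCun2.0, and the counting program is not given in the sources used here. Of 13827 entries at 13313 loci, entries of 434 loci with several genes repeat the same counts; every member has a locus of its own. A gene name is missing for 44 entries.

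The main test was edgeR's quasi-likelihood test (edgeR 4.0.16, R 4.3.3) after filterByExpr, which left 13142 entries and removed 685, and TMM scaling. 1 model held the means of the 6 groups, so that the 2 HT5 samples borrow their spread from the others. The Benjamini-Hochberg adjustment ran over every entry tested, and log2FC used a prior count of 0.125. Totals per sample were 14508362 to 19961087. The scripts were tested on simulated data. Figures were drawn with matplotlib 3.10.9. Alternatives were DESeq2 1.42.0, DESeq2 size factors in edgeR, no count filter, the compared samples alone, a replicate block, 1 entry per locus, a prior count of 2 (which leaves the p-values as they are), the DEG rule and leaving out each sample.

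The members, lists and tests were chosen with earlier results of these data known. All members are named, and from each list up to 3 genes with the largest absolute log2FC among those called on day 7; 1 gene of these lists was left out of the counts and is not reported here. Other list genes are given by direction and, for some chosen after their values were seen, by log2FC. Correlations of deviations from the group means between samples of the same replicate number were 0.175, 0.121 and 0.243 on day 3, 0.258 and 0.138 on day 5, and 0.230, 0.150 and 0.0863 on day 7. Every one of the 3 pairs passed 0.1 on day 3. Correlations between samples of unlike numbers were not computed, so these values cannot show whether the numbers pair the samples. Neither the labels nor the paper say what the numbers stand for.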

Additional observations from a re-analysis of the deposited data

Results flagged for a closer look

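The hyperoxia effect differed between days 7 and 3, by the interaction term of the edgeR model, for 3 of 10 members, where 20.5% of all entries were called. The difference in log2FC (day 7 minus day 3) was 1.59 for CCN2, 2.62 for INHBA and 1.49 for TGFBI, all 3 of them targets. The CCN2 difference passed the test in 7 of the 12 fits that left out 1 sample. In each, the 3 HT7 samples lay above the 3 NT7 samples while the HT3 and NT3 samples overlapped. For INHBA, the NT7 level (0.394 ± 0.0512 CPM, SD, n = 3) was below the NT3 level (0.917 ± 0.324 CPM), and the change from HT3 to HT7 alone was 1.42 in log2FC.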

How the results depend on the processing

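No alternative that kept all samples reversed a member's direction on any day. With DESeq2, 5 members were called on day 5 (TGFB3 and TGFBI in addition), 1 for day 5 minus day 3 (TGFBR2) and 4 further pathway genes on day 3; over all entries DESeq2 called 4570, 880 and 502 in these comparisons, against 4115, 192 and 136 by edgeR. With the DEG rule, 0 members were called on day 5, 1 on day 7, 0 from HT3 to HT7 and 0 for day 7 minus day 3, and of the further pathway genes 0, 1 and 3 on days 3, 5 and 7. Leaving out each sample, 1 to 3 members were called on day 5, 4 to 7 on day 7, 3 to 6 from HT3 to HT7 and 2 to 5 for day 7 minus day 3. The fewest calls came without HT5 replicate 2 on day 5 (1) and without HT7 replicate 3 from HT3 to HT7 (3), and the most without HT7 replicate 2 for day 7 minus day 3 (5). Uncalled log2FC values that changed sign ran, on day 3, from -0.14 to 0.25 (TGFB2), -0.017 to 0.26 (TGFBR3), -0.15 to 0.11 (SMAD7), -0.43 to 0.059 (CCN2), -0.44 to 0.073 (INHBA) and -0.13 to 0.10 (TGFBI), on day 5 from -0.998 to 0.096 (CCN2), and on day 7 from -0.18 to 0.045 (TGFBR1). The causes were not tested. With a replicate block, 0, 3 and 5 members were called on days 3, 5 and 7; on day 5 SMAD7 was lost (adjusted p = 0.0503) and TGFB3 gained (0.0413), and the block changed no other call of a member on these days. Low counts limit INHBA, at 5 to 69 counts per sample, and the 2 HT5 samples limit day 5.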
